A study of Sus scrofa with 16 samples.

Results

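CRP, MBL2, FCN1, PGLYRP2 and PROC are 5 genes for secreted proteins of blood plasma, 4 of innate recognition and 1 of anticoagulation. They were taken by gene symbol as proteins expected from liver, and each had 1 row among the 20736 rows of the deposited table, of which 178 carried a symbol (175 genes). The arrays held oligonucleotides of 70 bases for the pig. RNA came from liver, longissimus muscle (skeletal muscle), brain stem and a tissue labelled uterine endothelium, of 4 gilts (young female pigs) about 165 days old. Each gilt gave 4 arrays with 2 tissues each, joined in a ring in which each tissue carried either dye, Cy3 and Cy5, on 1 array. No strain, genotype or treatment is given in the sources used here.

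CRP, a pentraxin, MBL2, a collectin, and FCN1, a ficolin, bind surface patterns of microbes and of damaged cells and can set off the complement cascade. PGLYRP2 is an amidase that cleaves bacterial peptidoglycan, and PROC, once activated, is the protease that shuts off clotting factors. In mammals hepatocytes are the known source of plasma CRP, MBL2 and protein C, and in humans of PGLYRP2 as well. Human FCN1, by contrast, is known from monocytes and neutrophils.

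The deposited values were log ratios of the 2 channels, read as log2 of Cy5 over Cy3. Neither the base nor the sign was stated; with the sign turned every higher below becomes lower at the same size. Genes outside the 5 served as the basis of the sign, and not all of them followed it. Of 5 liver genes, UOX, CYP7A1 and QDPR were then highest in liver, while CYP8B1 (0.20) and VNN1 (-0.31, above 0 in 0 of 4 gilts) did not differ between liver and the mean of the others past the threshold. MYOD1, a myogenic factor, was highest in muscle at 0.86, as was LMCD1 at 0.20, whereas the slow myosin MYH7 was not, at -0.044 in muscle. MYH7 was instead higher in liver than the mean of the others, by 0.25 (limma adjusted p = 0.045). Of 4 neuronal genes CEND1 was highest in brain stem, whereas GAD2 and GAD1 were highest in no tissue past the threshold. GAD1 was higher in liver than the mean of the others, by 0.13 (limma adjusted p = 0.038). GLRB was lower in brain stem (-0.35), so the neuronal genes were mixed. Of 3 endothelial, stromal and epithelial genes CAV1, the main protein of caveolae, was highest in uterine endothelium. OXTR, the oxytocin receptor, was instead highest in muscle, at 0.35 against -0.18 in uterine endothelium. FOLR1, a folate receptor, was highest in no tissue past the threshold, at 1.15 in liver and 1.05 in uterine endothelium. Endothelial genes such as PECAM1, CDH5 and KDR were not among the named rows. Array medians lay between -0.01 and 0.01. Tissue values below are centred so that a gilt's 4 values sum to 0, and tests are limma fits with gilt as a block, adjusted over all rows with a threshold of 0.05. In such bulk RNA, fewer cells of a type and less RNA per cell cannot be told apart.

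All 5 genes differed among the 4 tissues, as did 61.2% of all rows (limma F test). CRP, PROC, MBL2 and FCN1 were highest in liver, above each other tissue past the threshold, a pattern found in 7.10% of all rows. PGLYRP2 was highest in brain stem, as were 9.70% of all rows. Against muscle, 4 of the 5 were higher in liver (13.3% of all rows), against uterine endothelium the same 4 (12.1%), and against brain stem the same 4 (21.1%).

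**Figure D1:**
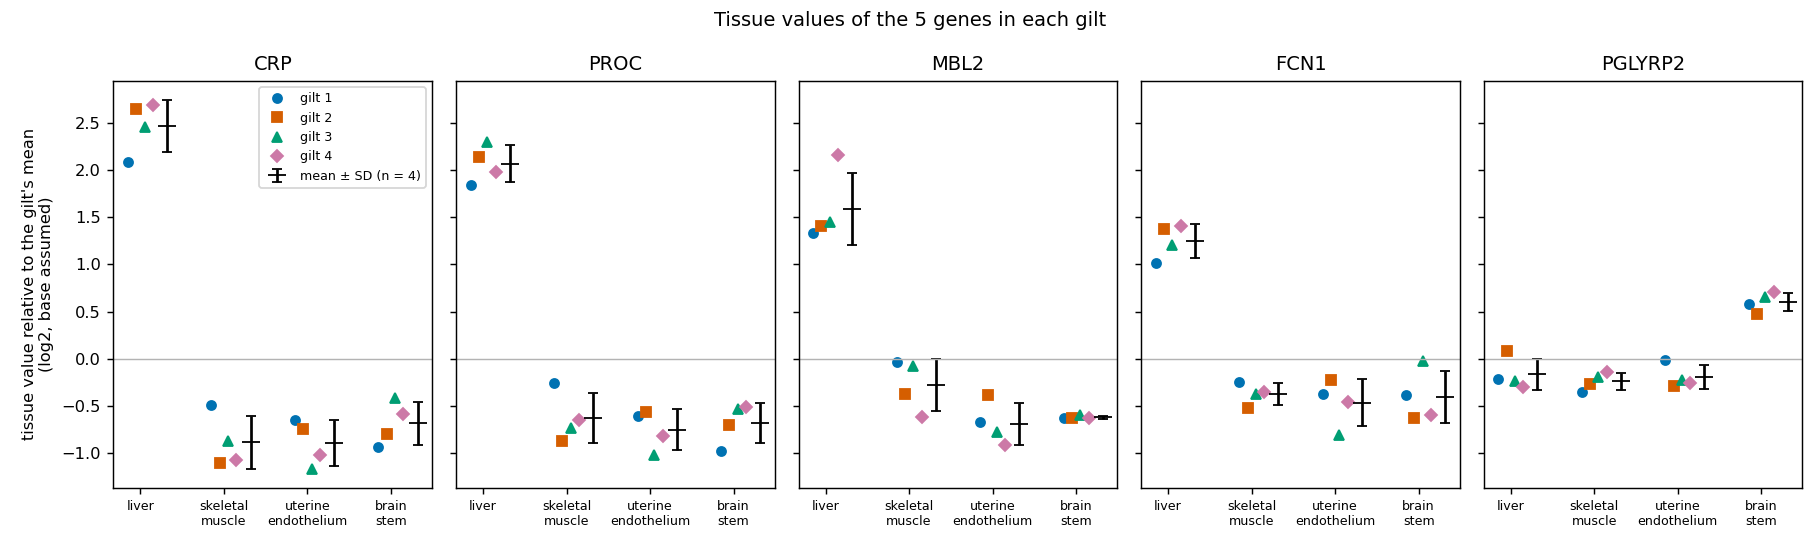
Tissue value of each gene (vertical axis, log2, base assumed, centred within each gilt) in 4 tissues, with 1 symbol per gilt and black bars for mean ± SD over 4 gilts. The 4 liver points of CRP, PROC, MBL2 and FCN1 sit above all their other points, and the 4 brain stem points of PGLYRP2 sit above all of its other points.

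CRP, the classical acute phase protein, had liver values of 2.08, 2.66, 2.46 and 2.69 in gilts 1 to 4. Its muscle values were -0.49, -1.11, -0.87 and -1.08, those in uterine endothelium -0.65, -0.74, -1.17 and -1.02, and those in brain stem -0.94, -0.80, -0.42 and -0.59. Liver lay far above the rest in every gilt, and the other 3 tissues overlapped. The liver mean was 2.47 ± 0.28 (SD, n = 4), and liver exceeded the mean of the other tissues by 3.30 ± 0.16 (SE; limma adjusted p = 3.1e-08). Over brain stem, the nearest tissue, the difference was 3.16, which is 8.94-fold if the base is 2. The liver difference of CRP ranked 133 among all rows from the top.

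The deposited ratios show the same without any solving of the ring. On the 8 arrays with liver in 1 channel, CRP was higher in liver by 2.44 at the lowest, 3.36 at the median and 3.79 at the highest. On the 8 arrays without liver its absolute ratio had a median of 0.15 and reached at most 0.49. CRP thus gave large ratios on arrays that held liver and small ones on arrays that did not.

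**Figure D2:**
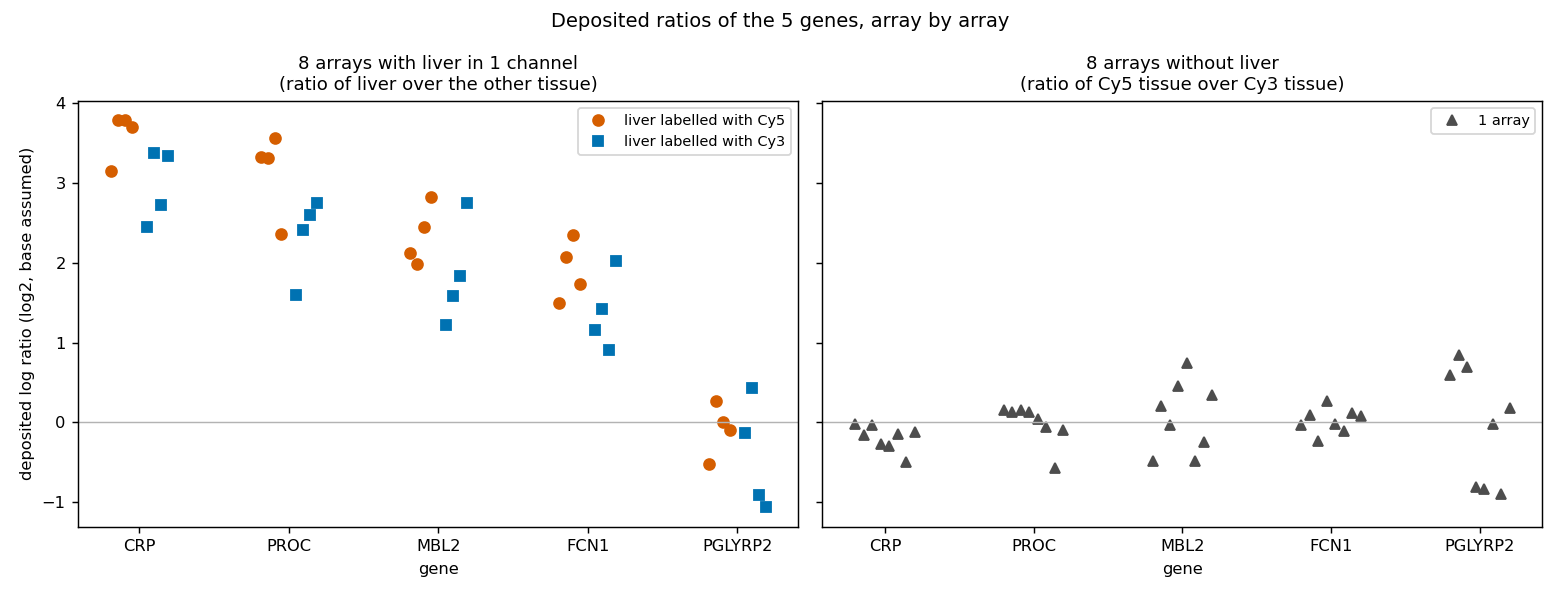
Deposited log ratios (vertical axis, log2, base assumed) of the 5 genes, with 1 point per array. Left, the 8 arrays with liver, turned to liver over the other tissue, with circles for liver in Cy5 and squares for liver in Cy3; right, the 8 arrays without liver, as Cy5 over Cy3. CRP, PROC, MBL2 and FCN1 lie above 0 on all 8 liver arrays, and PGLYRP2 on 3 of 8.

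PROC encodes protein C, which circulates as an inactive zymogen. Its liver values were 1.85, 2.14, 2.30 and 1.98 in gilts 1 to 4, with a mean of 2.07 ± 0.20 (SD, n = 4). Muscle stood at -0.26, -0.88, -0.74 and -0.65, uterine endothelium at -0.61, -0.56, -1.03 and -0.82, and brain stem at -0.98, -0.70, -0.54 and -0.51. Liver was again apart from the rest in each gilt, and the other tissues overlapped. Liver exceeded the mean of the others by 2.76 ± 0.14 (SE; limma adjusted p = 4.2e-08), and muscle, the nearest tissue, by 2.70 (6.49-fold if the base is 2). On the liver arrays the ratio of PROC ran from 1.60 to 3.57 with a median of 2.68, and on arrays without liver its absolute value was at most 0.57.

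MBL2, the mannose-binding lectin of plasma, stood at 1.34, 1.40, 1.45 and 2.16 in the livers of gilts 1 to 4. Muscle values were -0.036, -0.38, -0.074 and -0.62, uterine endothelium values -0.67, -0.39, -0.78 and -0.92, and brain stem values -0.63, -0.63, -0.60 and -0.63. Gilts 1 to 3 lay close together in liver and gilt 4 above them. The liver mean was 1.59 ± 0.39 (SD, n = 4), and liver lay above the average of the rest by 2.12 ± 0.16 (SE; limma adjusted p = 1.3e-06). Without gilt 4 this excess was 1.86 and still past the threshold.

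Muscle was the nearest tissue to liver for MBL2. Liver exceeded muscle by 1.87, uterine endothelium by 2.28 and brain stem by 2.21. Muscle was above uterine endothelium by 0.41 (limma adjusted p = 0.14) and above brain stem by 0.35 (limma adjusted p = 0.18). Either difference was above 0 in 4 of 4 gilts, but only by 0.011 in gilt 2 for uterine endothelium and 0.011 in gilt 4 for brain stem. Without gilt 4 these differences were 0.45 and 0.46 and passed the threshold (limma adjusted p = 0.034 and 0.023). Under none of the other alternatives given at the end did either pass. With arrays scaled to a common spread they were 0.31 and 0.12 (limma adjusted p = 0.43 and 0.75). On the arrays that paired muscle with uterine endothelium directly, from gilts 1, 3 and 4, MBL2 was higher in muscle by 0.35 to 0.49 on 3 of 3. On those that paired muscle with brain stem, from gilts 2 and 3, it was higher in muscle by 0.46 and 0.74. These ratios also enter the tissue values, and neither set includes the gilt with a difference of 0.011.

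FCN1, the ficolin, also called FCNB in the reference gene table, had liver values of 1.01, 1.38, 1.21 and 1.41. Muscle values were -0.25, -0.53, -0.38 and -0.35, uterine endothelium values -0.38, -0.22, -0.81 and -0.46, and brain stem values -0.38, -0.63, -0.025 and -0.59. Liver was the highest tissue in 4 of 4 gilts, and the other 3 overlapped. The mean in liver was 1.25 ± 0.18 (SD, n = 4), which put liver above the mean of the other tissues by 1.67 ± 0.13 (SE; limma adjusted p = 2.0e-06). The smallest of its 3 pairwise differences, 1.63 over muscle, is 3.09-fold if the base is 2.

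Since FCN1 is known from blood cells in humans, leukocyte genes were set beside it. Of 41 genes on that list 7 were named here and their liver differences reached at most 0.26, against 1.67 for FCN1. CD4, a co-receptor of helper T cells, was higher in liver than the mean of the other tissues by 0.20 (limma adjusted p = 0.041). LTA, a lymphocyte cytokine, was lower by limma at -0.81 (adjusted p = 0.00044) and IL17A, a T cell cytokine, at -0.22 (adjusted p = 0.042). Thus 1 of the 7 was higher, 2 were lower and 4 did not pass. LTA and IL17A were highest in brain stem, at 1.17 and 0.35, a value that enters the mean of the others. In liver they stood at -0.61 and -0.16, and in muscle at -0.44 and -0.10. TYROBP, a myeloid signalling adaptor, differed by 0.26 and CYBA, a subunit of the phagocyte oxidase, by -0.24, neither past the threshold. Both were highest in uterine endothelium, at 0.50 and 0.81, CYBA past the threshold against each other tissue. The chemokine receptors CCR2 and CCR9 differed by -0.056 and 0.15, neither past the threshold. The median of the 7 liver differences was -0.056, against -0.030 over all rows. Outside this list PGLYRP1, a protein of neutrophil granules, was lower in liver at -0.34 (limma adjusted p = 0.043). Of the antimicrobial peptides, NPG4 was higher in liver by 0.16 (limma adjusted p = 0.023). PR39 (-0.14) and DEFB1 (0.0066) did not pass, so these genes were mixed. Defining markers of monocytes and neutrophils such as CD14, CSF1R and MPO were not among the named rows, and the part of blood cells in the FCN1 difference was not tested.

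The order of the liver values was CRP, PROC, MBL2 and FCN1 in gilts 1 to 3, while in gilt 4 MBL2 (2.16) stood above PROC (1.98). These are differences between tissues within a probe and not levels, and the differences between genes were not tested. Across the 16 tissue values, which share arrays and gilts, Pearson's r between the 4 genes lay between 0.96 and 0.99 and is given as a description. With PGLYRP2 their r was between -0.34 and -0.20.

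**Figure D3:**
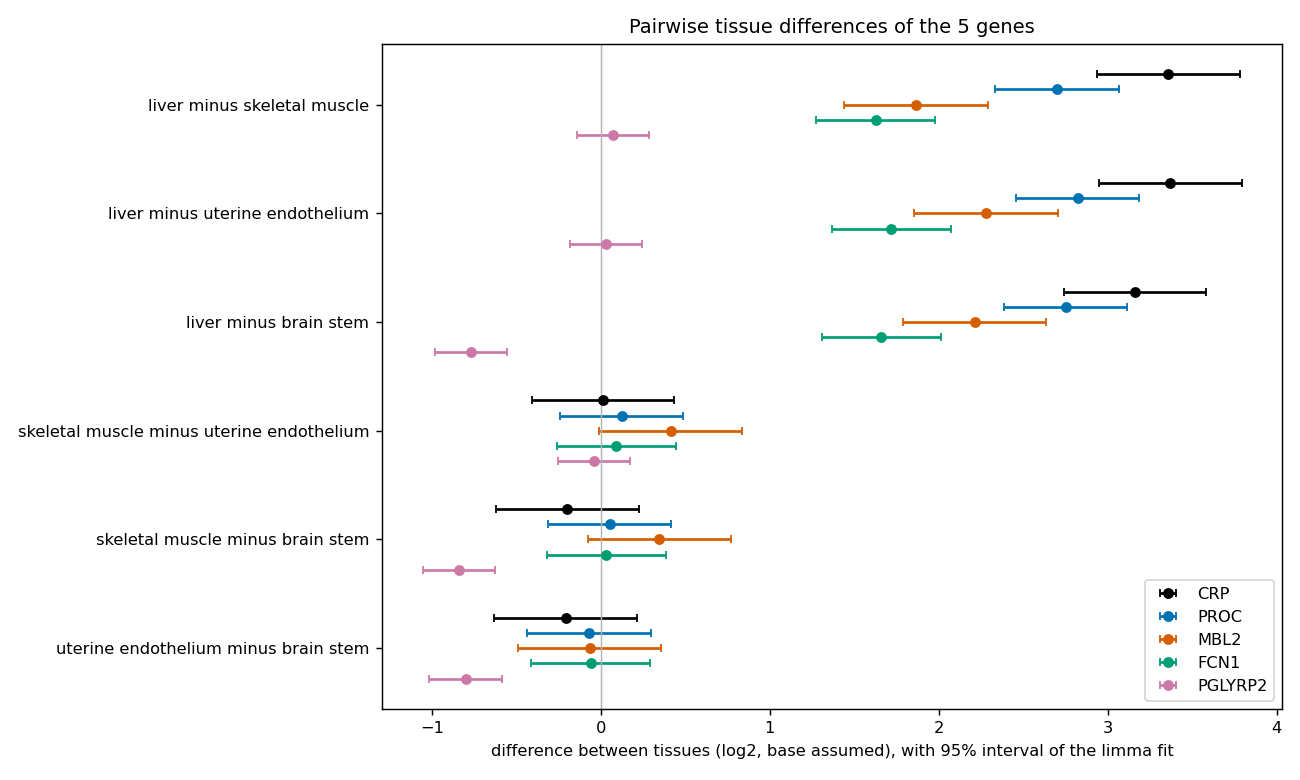
Differences between tissues (horizontal axis, log2, base assumed) of the 5 genes for the 6 tissue pairs, as points with the 95% interval of the limma fit. The 3 liver rows are above 0 for CRP, PROC, MBL2 and FCN1, the rows without liver reach across 0 for these 4, and PGLYRP2 is below 0 where brain stem is subtracted.

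Among the tissues other than liver these 4 genes gave no call. Over the 5 genes, 0 differed between muscle and uterine endothelium by limma, where 26.4% of all rows did. The smallest unadjusted limma p among the 5 was 0.055, for MBL2. Between muscle and brain stem 1 of 5 differed (39.1% of all rows), and between uterine endothelium and brain stem 1 of 5 (41.8%); in either case the gene was PGLYRP2. The 95% interval of the difference between muscle and uterine endothelium ran from -0.41 to 0.43 for CRP, from -0.24 to 0.49 for PROC, from -0.011 to 0.84 for MBL2 and from -0.26 to 0.44 for FCN1. Differences of that size were therefore not resolved.

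PGLYRP2 departed from the rest. Its liver values were -0.21, 0.077, -0.23 and -0.30 in gilts 1 to 4, those of muscle -0.35, -0.27, -0.19 and -0.14, and those of uterine endothelium -0.013, -0.29, -0.23 and -0.26. In brain stem it stood at 0.58, 0.48, 0.65 and 0.70. Brain stem was above all other tissues in each gilt, and the other 3 overlapped. This pattern was not particular to PGLYRP2, since 9.70% of all rows were highest in brain stem. Of the other listed genes, LTA (1.17), TLR10 (0.48), IL17A (0.35) and CEND1 (0.22) were also highest there, and the milk gene LALBA stood at 0.58. No spot intensities were used, so the signal of PGLYRP2 over background is unknown.

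The brain stem mean of PGLYRP2 was 0.60 ± 0.098 (SD, n = 4), and brain stem exceeded the mean of the other tissues by 0.80 ± 0.080 (SE; limma adjusted p = 1.4e-05). Liver minus brain stem was -0.77, uterine endothelium minus brain stem -0.80 and muscle minus brain stem -0.84 (1.79-fold lower in muscle if the base is 2), with limma adjusted p between 5.1e-05 and 8.3e-05. On the 8 arrays with brain stem the ratio towards brain stem ran from 0.53 to 1.07 with a median of 0.84, above 0 on 8 of 8. On the 8 arrays without it the median absolute ratio was 0.15 and the highest 0.60.

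Liver did not exceed muscle or uterine endothelium for PGLYRP2: the differences were 0.070 (95% interval -0.14 to 0.28, limma adjusted p = 0.68) and 0.031 (-0.18 to 0.25, limma adjusted p = 0.86). These intervals lie below the smallest liver difference of FCN1, 1.63. Liver minus the mean of the other tissues was -0.22 ± 0.080 (SE; limma adjusted p = 0.062). It passed the threshold without gilt 2, at -0.33 (limma adjusted p = 0.016).

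**Figure D4:**
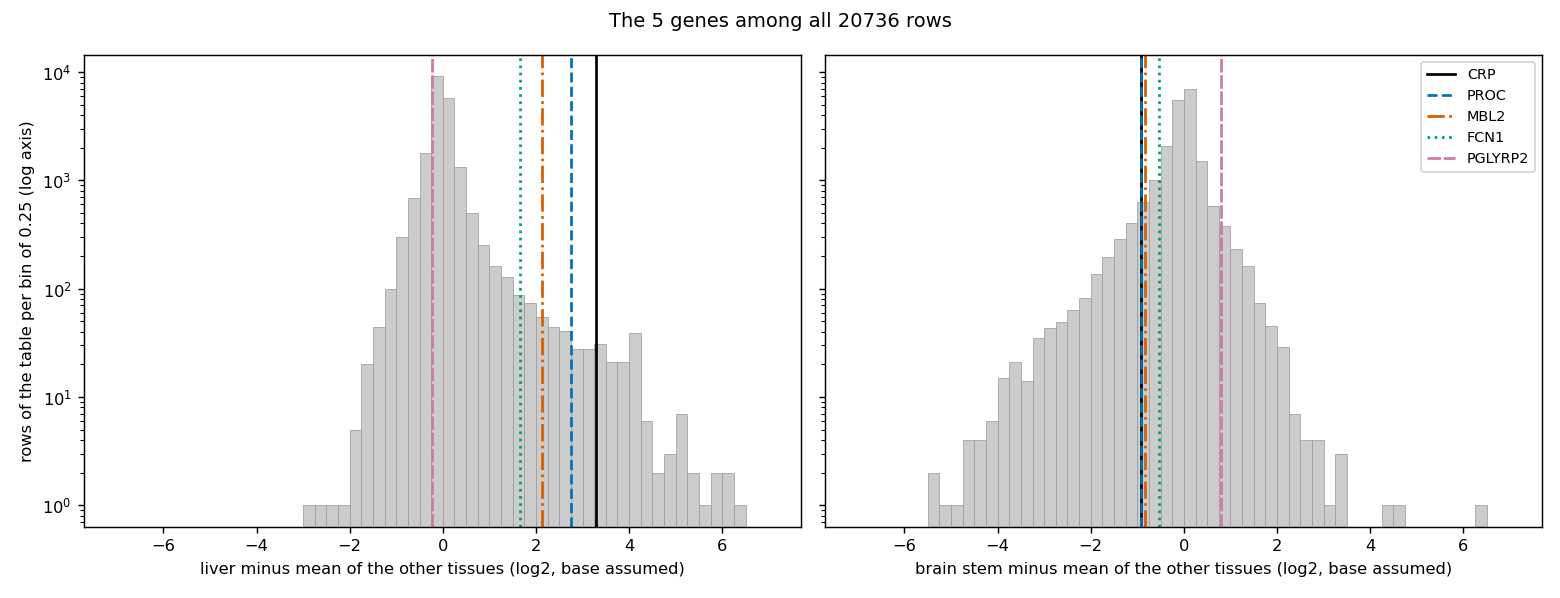
Number of rows (vertical log axis) by the difference of liver, left, and of brain stem, right, from the mean of the other tissues (horizontal axis, log2, base assumed), with a line for each of the 5 genes. CRP (3.30) lies in the upper tail of the liver differences, and PGLYRP2 (0.80) lies on the upper side of the brain stem differences.

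Within all rows, the liver difference placed CRP in the top 0.64%, PROC in the top 0.94%, MBL2 in the top 1.47% and FCN1 in the top 2.08%. For the brain stem difference PGLYRP2 was in the top 4.08%. The rows directly before the 5 genes in the table had absolute tissue means of 0.022 (CRP) to 0.32 (MBL2), so none of the 5 followed a strongly differing row. Those preceding rows were named OBP, SHAS2, IL18R1, TNFSF8 and IFNB1. The row after CRP was LALBA, the milk protein alpha-lactalbumin, at -0.25 in liver and 0.58 in brain stem. AVPR2 followed PGLYRP2 and KCNN4 followed PROC, at 0.044 and -0.013 in brain stem.

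The ratios round a ring sum to 0 when dye and error play no part, so their mean is a check that does not involve tissue. That mean was 0.063 ± 0.0996 (SD, n = 4) for CRP, 0.16 ± 0.079 for MBL2, 0.15 ± 0.15 for FCN1, 0.068 ± 0.14 for PGLYRP2 and 0.19 ± 0.33 for PROC. The limma test against 0 called 0 of the 5 genes and 0.786% of all rows; 2 of the 5 and 4377 of the 20736 rows had an unadjusted p below 0.05. The median absolute value over all rows was 0.048. PROC varied most, with 0.51 in gilt 1 and -0.27 in gilt 4.

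On arrays with liver in Cy5 the liver ratio of CRP averaged 3.61 ± 0.30 (SD, n = 4) and with liver in Cy3 2.97 ± 0.46. The same order held for all 5 genes and for 52.7% of all rows. For PROC the values were 3.15 ± 0.53 and 2.34 ± 0.51, for MBL2 2.35 ± 0.37 and 1.85 ± 0.65, and for FCN1 1.91 ± 0.38 and 1.38 ± 0.48. The 2 sets of arrays also differ in the partner tissue, and the difference between them was not tested. Each ring holds liver once in each dye, so the tissue values average over the 2.

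Of the other 173 named rows, UOX, urate oxidase of liver, had the pattern most like CRP, MBL2, FCN1 and PROC. Pearson's r over the 16 tissue values was 0.98 with CRP, 0.95 with MBL2, 0.98 with FCN1 and 0.99 with PROC. GAL3ST2, a sulfotransferase, came second for CRP, MBL2 and PROC (r = 0.94, 0.94 and 0.95) and after GATA6 for FCN1 (r = 0.92). OCA2, a melanosomal transporter, came next for CRP (r = 0.91), CYP7A1, which starts bile acid synthesis, next for PROC (r = 0.91), and GATA6, a transcription factor, next for MBL2 and directly after UOX for FCN1 (r = 0.89 and 0.93). Likeness in pattern was not likeness in size, since the liver value was 1.68 for UOX but 0.34 for OCA2 and 0.24 for GATA6. Between 2.46% and 3.32% of all rows reached r = 0.9 with one of these 4 genes.

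PGLYRP2 was most like ODF1, a sperm tail protein (r = 0.98), COL10A1, a collagen of growth cartilage (r = 0.96), and the type I interferon IFNA1 (r = 0.95). Their brain stem values were 0.67 ± 0.19, 0.56 ± 0.15 and 0.91 ± 0.16 (SD, n = 4). An r of 0.9 with PGLYRP2 was reached by 3.25% of all rows. All these r share gilts and arrays and are descriptions.

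Few genes of the same pathways had a named row. For reference, 14.2% of all rows were higher in liver than the mean of the other tissues and 11.3% lower. In brain stem 20.6% were higher and 26.6% lower, the latter with 4 of the 5 genes, CRP, PROC, MBL2 and FCN1. For these 4 the mean of the others includes the high liver value. Brain stem did not differ past the threshold from muscle or from uterine endothelium for any of them. Of 41 genes of the lectin and complement pathway, CD46, a membrane regulator that protects cells from complement, was the only one besides MBL2 and FCN1. It did not pass the F test (limma adjusted p = 0.15) and stood at -0.027 in liver. From the 33 genes of coagulation, ITGA2B, the platelet fibrinogen receptor subunit, was measured besides PROC. It differed from the other tissues by 0.0092 in liver and was higher in brain stem by 0.23 (limma adjusted p = 0.0021).

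PGLYRP1, the peptidoglycan recognition protein of neutrophil granules and a relative of PGLYRP2, was higher in brain stem as well, by 0.58 ± 0.11 (SE; limma adjusted p = 0.0014), and lower in liver, at -0.34 (limma adjusted p = 0.043). It stood at 0.43 in brain stem, 0.087 in muscle, -0.26 in liver and -0.26 in uterine endothelium. TLR10, a Toll-like receptor, was also higher in brain stem, by 0.64. Of the 5 genes measured besides PGLYRP2 on the list of peptidoglycan recognition, receptors and antimicrobial peptides, 2 were higher and 2 lower in brain stem and 1 did not pass. The 2 lower ones were the cathelicidin PR39 (-0.35) and the protegrin NPG4 (-0.25), and the beta-defensin DEFB1 differed by 0.029.

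Beside the brain stem values of PGLYRP2 stand 4 neuronal and glial genes. CEND1 was higher there by 0.29 and GAD2, a GABA-making enzyme, by 0.34, GLRB, a glycine receptor subunit, was lower at -0.35, and GAD1 differed by 0.0087. Of 7 leukocyte genes, 4 were higher in brain stem and 1 lower, with a median of 0.23; LTA differed most, by 1.56. Defining markers of neurons and glia such as SNAP25, GFAP and MBP were not among the named rows, and the part of any cell type in the PGLYRP2 value was not tested.

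On the list of acute phase proteins and pentraxins CRP was the only gene with a named row. Of 20 acute phase inducing cytokines and receptors 2 had a named row. IL1A, an inducer of the acute phase response, was higher in liver, by 1.16 ± 0.070 (SE; limma adjusted p = 2.1e-07). LIF, another inducer, differed by 0.0026 (limma adjusted p = 0.98). Any part of these cytokines in the CRP value was not tested. Of 5 further liver genes, UOX (2.24), QDPR, which recycles tetrahydrobiopterin (1.83), and CYP7A1 (0.98) were higher in liver. CYP8B1, a bile acid hydroxylase (0.20), and VNN1, a pantetheinase (-0.31), did not pass. The liver differences of CRP (3.30) and PROC (2.76) were thus larger than that of any of these 5 genes, MBL2 (2.12) lay between QDPR and UOX, and FCN1 (1.67) between CYP7A1 and QDPR. Of 3 endothelial, stromal and epithelial genes, the folate receptor FOLR1 was higher in liver than the mean of the others (1.54). CAV1 was lower (-0.78) and the oxytocin receptor OXTR did not pass (-0.029). FOLR1 was nearly as high in uterine endothelium (1.05) as in liver (1.15), with muscle at -0.68 and brain stem at -1.52.

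**Figure D5:**
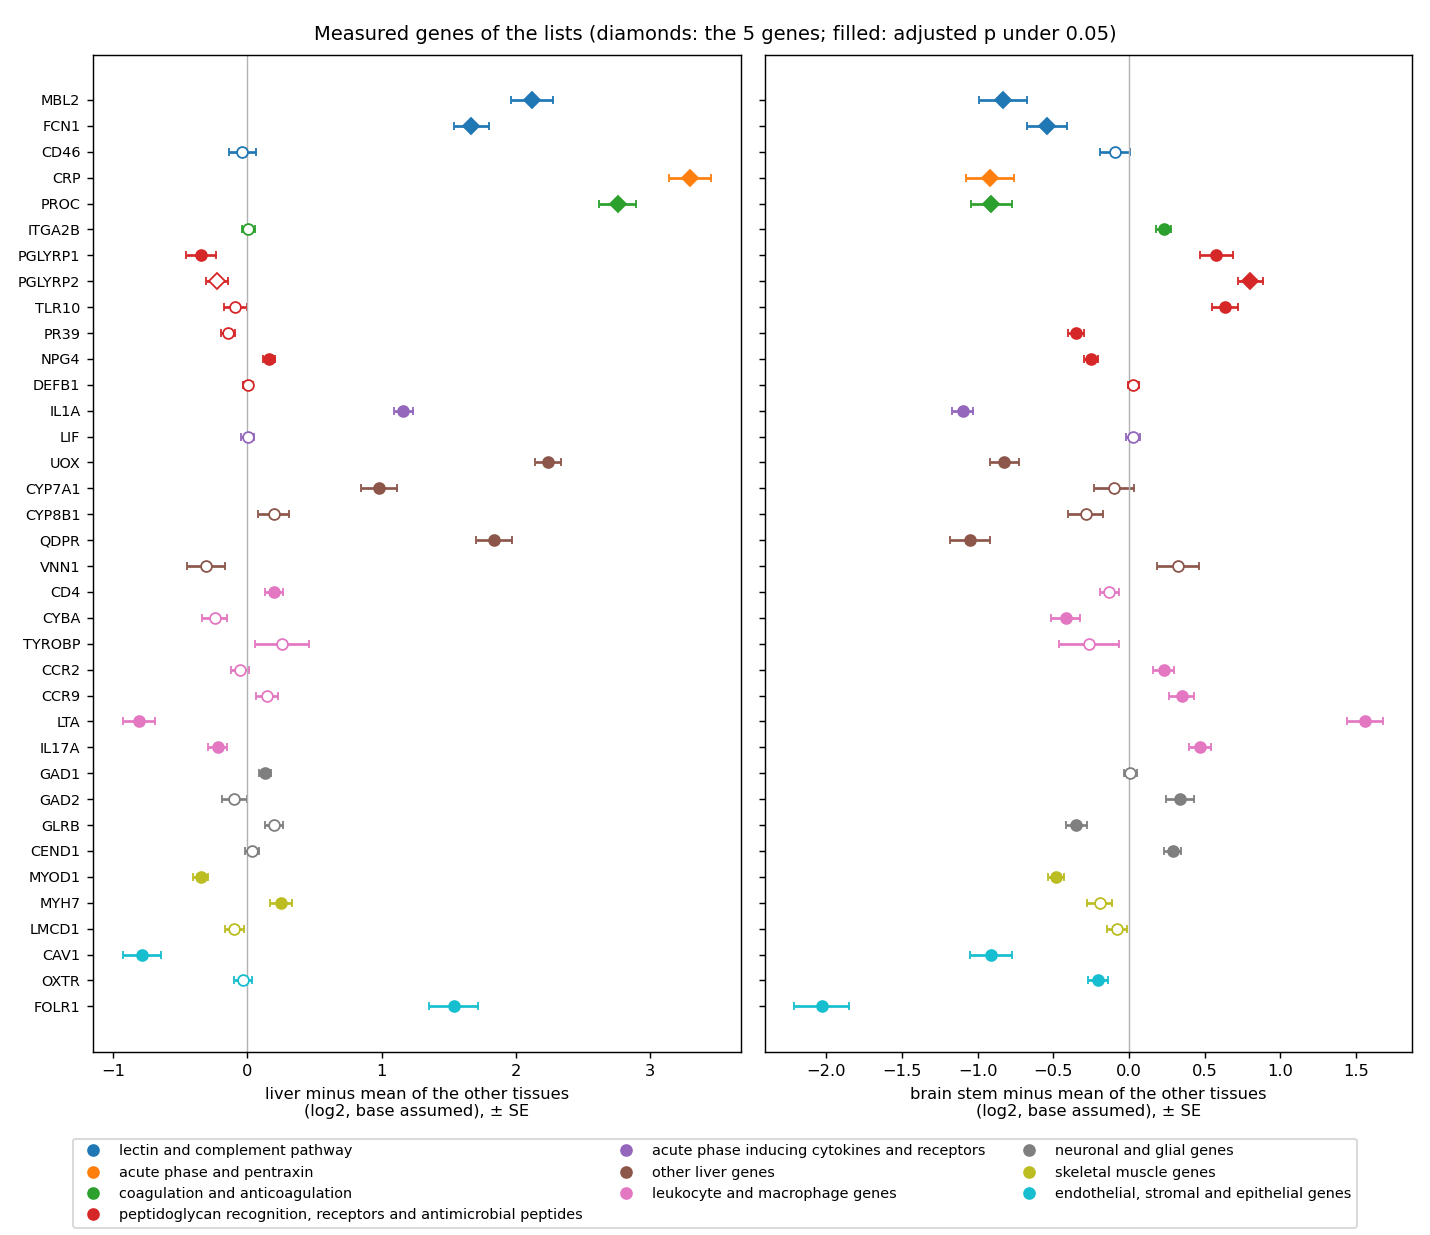
Difference of liver, left, and brain stem, right, from the mean of the other tissues (horizontal axes, log2, base assumed) for the measured genes of 10 lists, with bars for ± SE, diamonds for the 5 genes and filled symbols for an adjusted p below 0.05. CRP has the largest liver difference of the genes shown, and LTA (1.56) and PGLYRP2 (0.80) the largest positive brain stem differences.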

How the data were processed

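The authors' deposited table holds 1 log ratio per row and array, read here as log2; no scanner, background or normalization step is given in the sources used here, and the base is not stated. Absolute values of up to 10.42 are too large for log10 of the range of a scanner, while natural logs cannot be told apart from log2, so folds hold only if the base is 2. RNA was copied by T7 amplification from oligo(dT) and dyed with Cy3 or Cy5, per the labels' protocols. No spot intensities were used, so signal over background is unknown, and precision rests on 4 gilts.

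The 4 ratios of each gilt's ring were converted by least squares to 4 tissue values that sum to 0. These 16 values were fitted across all 20736 rows with limma 3.58.1 (R 4.3.3), with terms for tissue and gilt (9 residual df), standard moderation and Benjamini-Hochberg adjustment within each contrast; the ring design ties values to 1 animal. The dye test used the mean ratio of each ring over 4 gilts.

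The 5 genes, the 10 lists and the sign were chosen with earlier results of these data known. Named genes were the 5, per gene the 3 other named genes of highest r, the measured list members and the genes of adjoining rows. Symbols came from the platform annotation, matched by gene identifier to RefSeq names. No sequences or positions were used. The alternatives tried are given at the end.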

Additional observations from a re-analysis of the deposited data

Results flagged for a closer look

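Among 55 sets of 4 gilt values (tissue values, pairwise differences and ring means of the 5 genes), 4 sets held 1 gilt whose gap to its neighbour, as a share of the set's range, passed Dixon's 95% limit, which about 1 in 20 sets pass by chance. For MBL2 in liver the share was 0.859, with gilt 4 at 2.16 and gilts 1 to 3 between 1.34 and 1.45. The difference of MBL2 from brain stem to liver gave 0.891, since gilt 4 had 2.79 and the remaining gilts 1.97 to 2.06. For PROC the difference between liver and brain stem gave 0.937: gilt 4 had 2.49, below the 2.83 to 2.85 of the rest. Gilt 1 was far off for PROC between muscle and brain stem (share 0.940), with 0.72 against -0.20 to -0.14. No array of gilt 1 paired these tissues, and its 4 PROC ratios summed to 2.02 round the ring.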

How the results depend on the processing

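Under 13 alternatives (median-centred arrays, scaled arrays, tissues centred on the most frequent value, no replicate block, array ratios with a dye term without a block or with gilt as a random block, each gilt left out, robust moderation, no rows of small SD, and carry-over from the preceding row removed), 5 of 5 genes passed the F test and 4 of 5 were highest in liver. The liver difference ranged from 3.20 to 3.50 for CRP, 2.65 to 2.89 for PROC, 1.86 to 2.27 for MBL2 and 1.60 to 1.78 for FCN1, and the brain stem difference of PGLYRP2 from 0.71 to 0.86. The liver difference of PGLYRP2 passed the threshold with no replicate block (-0.22), with carry-over removed (-0.27) and without gilt 2; without 1 gilt it ranged from -0.33 to -0.16. Pairing by gilt comes from the labels, and the fit with no replicate block changed no other call among the 5 genes. Leaving out gilt 4 moved 3 calls that are not on liver against the rest: the muscle differences of MBL2 passed, and FCN1 in brain stem minus the rest (-0.54) did not pass at -0.46.

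Differences that were not called turned sign as follows, with ranges over the leave-one-gilt-out fits. Muscle minus uterine endothelium turned for CRP with scaled arrays (-0.16), with tissues centred on their mode (-0.0046) and without gilt 1 or 3 (-0.086 to 0.13), for FCN1 without gilt 3 (-0.023 to 0.22), for PROC with scaled arrays (-0.0022) and for PGLYRP2 without gilt 1 (-0.092 to 0.060). Muscle minus brain stem turned with scaled arrays for FCN1 (-0.12) and PROC (-0.13), for FCN1 without gilt 1 or 4 (-0.039 to 0.16) and for PROC without gilt 1 (-0.17 to 0.13). Uterine endothelium minus brain stem turned for MBL2 without gilt 4 (-0.17 to 0.0076), for FCN1 without gilt 3 (-0.21 to 0.18) and for PROC without gilt 3 or 4 (-0.22 to 0.069). For PGLYRP2, liver minus muscle turned without gilt 2 (-0.021 to 0.15), and liver minus uterine endothelium turned without gilt 2 (-0.082 to 0.11), with scaled arrays (-0.0099) and with carry-over removed (-0.014). The causes were not tested.

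Of all rows, 12699 passed the F test, with 8870 to 15382 under the alternatives. Without gilt 3, 1259 rows were highest in brain stem (2012 with all gilts), 1576 higher in liver than uterine endothelium (2514), and 5611 differed between uterine endothelium and brain stem (8662). Between muscle and uterine endothelium 3103 differed without gilt 3 and 3436 without gilt 2 (5475). Rows with a dye effect numbered 163, and 0, 0 and 6 without gilts 2, 3 and 4.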
